A study of Mus musculus with 12 samples.

Results

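The kinases that phosphorylate serine/arginine-rich (SR) splicing factors were followed in the developing mouse lung. The group held 7 of the 16152 genes with deposited read counts, namely *Clk1*, *Clk2*, *Clk3*, *Clk4*, *Srpk1*, *Srpk2* and *Dyrk1a*, and 1 exon of *Clk1* (event MmuEX0011716) of the 661162 splicing events in the percent spliced in (PSI) table. The genes were chosen by their symbols with earlier results of these libraries known. The *Clk1* exon was chosen because its PSI differed between these same libraries, so its PSI is described without a test. RNA was sequenced from whole lungs of wild-type C57BL/6 mice, untreated and of both sexes, at 2 embryonic (E15.5 and E18.5) and 2 postnatal (P5 and P8) time-points with 3 replicates each. Each time-point was represented by 1 litter, so litter and time-point cannot be told apart, and the p-values measure the spread between littermates. In bulk tissue, fewer cells of a type and less RNA per cell cannot be told apart either.

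SR proteins bind pre-mRNA through RNA recognition motifs and contact the spliceosome through a tail rich in arginine and serine repeats, whose phosphorylation state sets where they reside and what they bind. SRPK1 and SRPK2, encoded by *Srpk1* and *Srpk2*, phosphorylate this tail mainly in the cytoplasm, which allows import into the nucleus by transportin 3, whereas the CLK kinases act on it in the nucleus and release SR proteins from nuclear speckles. DYRK1A, a related kinase of the same CMGC group, phosphorylates several splicing factors and is known for its dosage effects in brain development. The CLK genes carry an alternative exon whose skipping removes the kinase domain from the encoded protein, and CLK1 is known to act on the splicing of its own transcript.

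In the annotation of the mouse genome (GENCODE vM21, mm10), *Clk1* (ENSMUSG00000026034) lies at chr1:58410189-58424066 on the minus strand, *Clk2* at chr3:89164795-89176921 on the plus strand, *Clk3* at chr9:57750624-57765860 on the minus strand and *Clk4* at chr11:51261730-51281766 on the plus strand. *Srpk1* lies at chr17:28587648-28622709 and *Srpk2* at chr5:23503264-23684617, both on the minus strand, and *Dyrk1a* at chr16:94570010-94695517 on the plus strand. The 4 CLK genes share an architecture: in the first-listed transcript of each, exon 4 of 13 is coding, and at least 1 annotated transcript omits it. This exon is 91 bases long in *Clk1*, 85 in *Clk2*, 97 in *Clk3* and 91 in *Clk4*, and each length leaves a remainder of 1 when divided by 3, so that omitting it shifts the reading frame. Removing exon 4 from the annotated coding sequence left 135 codons before the first stop in place of 483 for *Clk1*, and 134 in place of 481 for *Clk4*. The corresponding numbers were 135 in place of 498 for *Clk2* and 300 in place of 638 for *Clk3*. In *Clk1*, *Clk2* and *Clk4* the stop lay in exon 5, and in *Clk3* it lay in exon 6. In each gene at least 1 transcript that omits exon 4 is annotated for nonsense-mediated decay (removal of RNA with an early stop). The codon counts therefore do not show that a shortened protein is made. The exon 4 sequences of *Clk1* (chr1:58420121-58420211, minus strand) and *Clk4* (chr11:51273078-51273168, plus strand) are shown 5′ to 3′ because these genes hold the *Clk* exon events described next, and capitals mark the bases at which the pair differs.
Clk1 exon 4: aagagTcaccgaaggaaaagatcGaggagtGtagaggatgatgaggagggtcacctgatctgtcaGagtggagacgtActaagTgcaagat
Clk4 exon 4: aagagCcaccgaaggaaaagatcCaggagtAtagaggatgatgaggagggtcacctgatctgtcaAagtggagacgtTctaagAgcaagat
The exons differed at 6 of 91 bases (93.4% identity), whereas *Clk1* exon 4 shared 59.3% of aligned positions with that of *Clk2* and 57.7% with that of *Clk3*. No run of 50 bases of the transcript Clk1-201 occurred in Clk4-201. The event identifiers of the PSI table were not tied to coordinates in the files used here, so the events described next cannot be assigned to these annotated exons.

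Inclusion of the *Clk1* exon was high at E15.5 and P5 and low at E18.5 and P8. PSI was 68.3, 74.4 and 72.7% in E15.5 replicates 1, 2 and 3, and 40, 55.8 and 36.9% in the E18.5 replicates. It was 73.7, 63.5 and 71.9% in the P5 replicates and 43.5, 47.8 and 45.6% in the P8 replicates. Each of the 6 libraries of E15.5 and P5 therefore lay above each of the 6 libraries of E18.5 and P8, and E18.5 replicate 2 was the highest of the lower 6. In order of time, the means were 71.8 ± 3.15, 44.2 ± 10.1, 69.7 ± 5.42 and 45.7 ± 2.18% (SD, n = 3). The mean differences, later minus earlier, for the consecutive intervals were -27.6, 25.5 and -24.1 points. Between time-points of like inclusion they were -2.11 points (E15.5 to P5) and 1.41 points (E18.5 to P8), within the spread of the replicates. The VAST-TOOLS coverage score was the highest class in all 12 libraries, with between 92.0 and 243 effective reads per library (the mean of both inclusion junctions plus the skipping junction). The 95% Wilson interval of a single library, which covers counting error only, ran from 47.2 to 64.1% for E18.5 replicate 2 and from 56.1 to 70.4% for P5 replicate 2, so the intervals of these libraries met.

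Among 13828 events with a mean PSI of 5 to 95% and sufficient coverage in these libraries, 0.767% had E18.5 libraries wholly below the E15.5 libraries with a mean difference of 20 points or more. In the same way, 1.52% had P5 libraries wholly above E18.5, and 0.253% had P8 libraries wholly below P5. The *Clk1* exon was in all 3 classes. The alternation itself, without overlap and with no minimum difference, was present in 39 of the 13828 events (0.282%). These shares place the exon among all events and are no support for it, since it was chosen from these values.

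**Figure D1:**
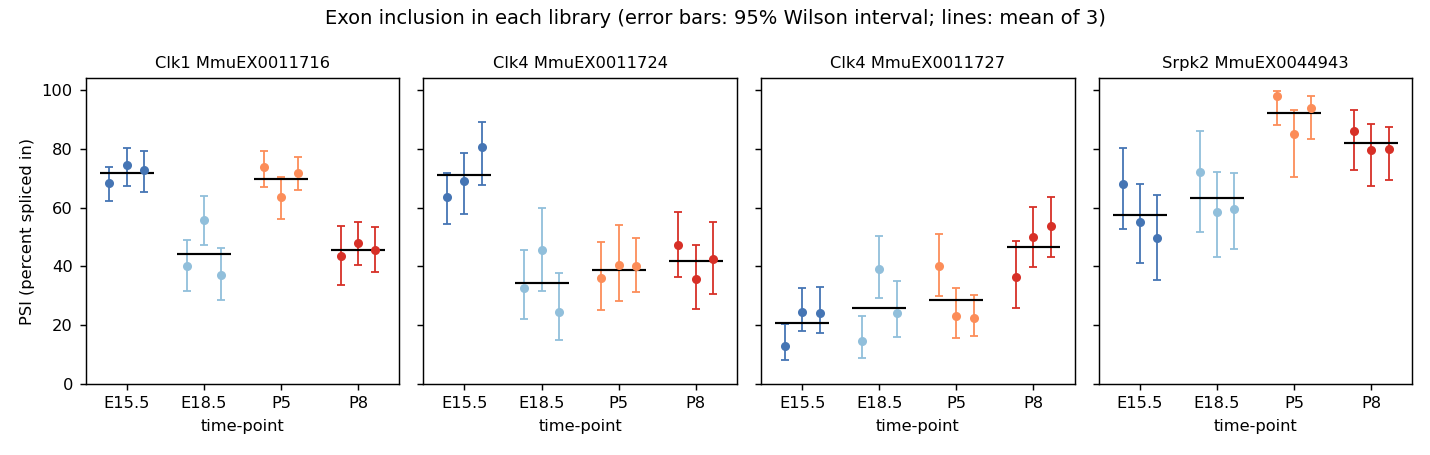
PSI in percent (y axis) of the 4 events of these genes at the 4 time-points (x axis). Points are libraries with 95% Wilson intervals, and horizontal lines are means of 3. The *Clk1* event has means of 71.8 and 69.7% at E15.5 and P5 and of 44.2 and 45.7% at E18.5 and P8, *Clk4* MmuEX0011724 stays low after E15.5, and the *Srpk2* event has few reads on one of its inclusion junctions.

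*Clk4*, which encodes the closest relative of CLK1, had 2 events in the tables of the study, which were also selected on these libraries. PSI of MmuEX0011724 was 63.6, 69.1 and 80.6% in the E15.5 replicates, then 32.8, 45.5 and 24.5% at E18.5, 36.0, 40.4 and 40.1% at P5, and 47.3, 35.7 and 42.4% at P8. All 9 later libraries lay below all 3 E15.5 libraries, and the 3 later time-points overlapped. From E15.5 to E18.5 this event thus moved the same way as the *Clk1* exon (-36.9 points against -27.6), but from E18.5 to P5 its mean differed by 4.58 points where that of the *Clk1* exon differed by 25.5. The difference between the events was not tested. The other event, MmuEX0011727, had means of 20.6 ± 6.60, 26.0 ± 12.5, 28.5 ± 9.998 and 46.7 ± 9.08% in order of time (n = 3, with SD), and its P8 libraries (36.4 to 53.7%) lay wholly above the E15.5 libraries (12.9 to 24.5%) but overlapped those of P5 and E18.5.

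The *Srpk2* event MmuEX0044943 had means of 57.6 ± 9.44, 63.4 ± 7.52, 92.4 ± 6.54 and 81.9 ± 3.52% over the successive time-points. Its coverage was under the minimum of VAST-TOOLS in 1 E18.5 and 1 P5 library. Its inclusion junctions were also unequal, with 13 upstream and 122 downstream reads at E18.5 (17 and 210 at P5). The skipping junction held 47 reads before birth, at E18.5, and 10 after it, at P5. These PSI are therefore given as values only. No event of *Clk2*, *Clk3*, *Srpk1* or *Dyrk1a* was paired with its gene in the tables used here.

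Across the 12 libraries, the events whose PSI was most like that of the *Clk1* exon, among 443 that the tables of the study pair with a gene, were an alternative donor of *D16Ertd472e* (Pearson r = 0.887), an alternative donor of *Gigyf1* (r = 0.722) and an exon of *Atxn7l1* (r = 0.703). *Clk4* MmuEX0011724 was at rank 8 with r = 0.622, and MmuEX0011727 was at rank 377 with r = -0.259. The most opposite events were an exon of *Zfp120* (r = -0.742), the other *Gigyf1* donor (r = -0.722) and an intron of *Frmd4a* (r = -0.71). The paired *Gigyf1* donors sum to a whole and are 1 observation. These correlations describe libraries that share their time-points. The 443 events were themselves listed by the study for differing between these time-points, so the ranks do not refer to splicing events at large.

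At the level of the genes, counts on a member ranged from 767 to 5230 per library. Levels are given in the deposited CPM (read counts scaled to the mapped reads of a library). Changes are log2 fold changes (later over earlier, with its standard error, SE) from edgeR's quasi-likelihood fit of all 12 libraries over 15994 genes. That fit scales by trimmed mean of M values (TMM), so small changes can differ from those of the CPM. From E15.5 to P5, for example, the median of all genes was -0.02 with TMM and -0.10 with scaling by library size. A change was called at a false discovery rate (FDR) under 0.05. From E15.5 to E18.5, 5 of the 7 members were lower at the later time-point (all 4 *Clk* genes and *Srpk1*) and 0 higher, against 9.87% of all genes lower and 11.6% higher. This count of 5 was 1 without E18.5 replicate 2, 2 when E18.5 replicate 3 or E15.5 replicate 1 was left out, and 3 when E15.5 replicate 2 was. From E18.5 to P5, 2 were higher (*Clk1* and *Clk3*) and 2 lower (*Srpk1* and *Dyrk1a*), against 35.4% and 35.7%, a share near that of all genes. From P5 to P8 edgeR called 0 members in either direction, where 9.75% of genes were higher and 8.21% lower (at an unadjusted p under 0.05 there were 3 members, and DESeq2 called 1, *Clk1*, with an adjusted p of 0.027). Without P8 replicate 3 the count was 2, and without E15.5 replicate 2 it was 1. The medians over the 7 members were -0.34, 0.17 and 0.06 in the 3 intervals, beside medians near 0 (-0.01, 0.00 and 0.00) over all genes tested.

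**Figure D2:**
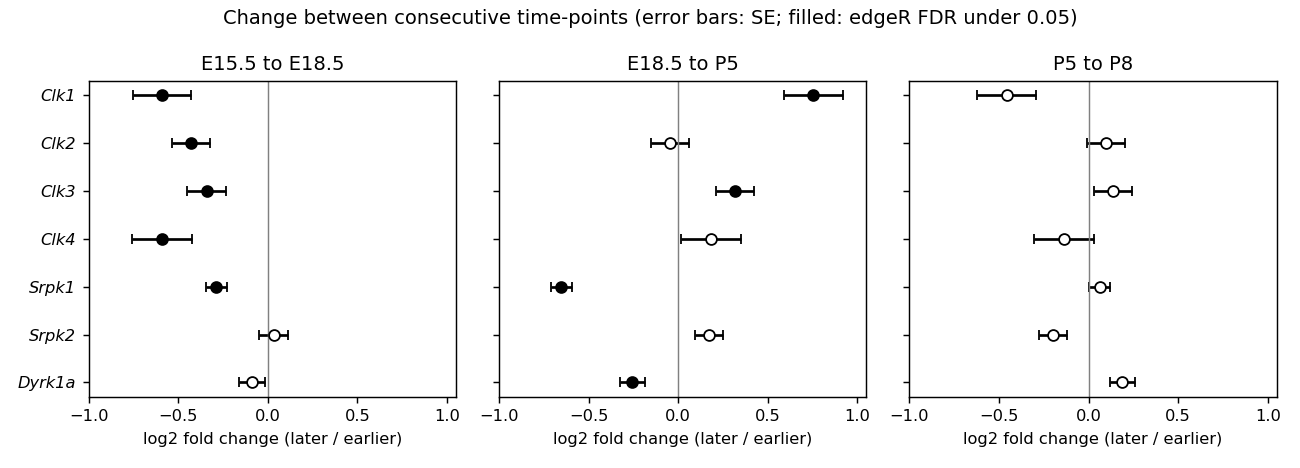
Log2 fold change (x axis) of each member (y axis) between consecutive time-points, with standard errors, from edgeR. Filled points have an FDR under 0.05: all 4 *Clk* genes and *Srpk1* from E15.5 to E18.5, *Clk1*, *Clk3*, *Srpk1* and *Dyrk1a* from E18.5 to P5, and none from P5 to P8.

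Of the nuclear kinases, *Clk1* fell before birth and was higher again at P5. It was at 66.8, 67.9 and 56.9 CPM in the E15.5 replicates and at 50.2, 38.9 and 37.2 CPM in the E18.5 replicates, so that no library of one time-point reached the other. In the P5 replicates it was at 54.9, 65.9 and 80.7 CPM, all above E18.5, and in the P8 replicates at 40.8, 45.6 and 61.9 CPM, which overlapped P5. *Clk1* thus fell before birth by 0.59 on the log2 scale (SE 0.164, edgeR FDR = 0.025) and rose by 0.75 across birth, to P5 (SE 0.165, edgeR FDR = 0.0012). From P5 to P8 its log2 fold change was -0.46 (SE 0.164, edgeR FDR = 0.071). In order of the mean, *Clk1* had 67.2 ± 12.9 CPM (P5), 63.9 ± 6.07 (E15.5), 49.4 ± 11.03 (P8) and 42.1 ± 7.06 (E18.5; SD, n = 3), and no neighbours in this order differed past the threshold (edgeR FDR = 0.38, 0.12 and 0.12). The fall before birth missed the threshold when E15.5 replicate 1 or 2 (edgeR FDR = 0.066 or 0.069) or E18.5 replicate 2 or 3 (edgeR FDR = 0.088 or 0.075) was left out. Without P8 replicate 3, which was the highest P8 library, the log2 fold change from P5 to P8 was -0.66 (edgeR FDR = 0.011), and that from E15.5 to P8 was -0.49 (edgeR FDR = 0.012). P8 replicate 3 is also the P8 library with the lowest thymocyte genes, and without the 3 libraries in which those genes were high (E15.5 replicate 2 and P8 replicates 1 and 2) the change from P5 to P8 was -0.14 (edgeR FDR = 0.75) and that from E15.5 to P8 was 0.08 (edgeR FDR = 0.74). Without E18.5 replicate 1 the change from E18.5 to P8, 0.30 with all libraries (edgeR FDR = 0.12), was 0.45 (edgeR FDR = 0.032), and over all single libraries left out it ranged from 0.09 to 0.45, the lowest without P8 replicate 3.

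*Clk4*, a nuclear SR protein kinase like *Clk1*, was highest at E15.5. Its levels were 30.2, 33.2 and 27.8 CPM in the E15.5 replicates, 23.99, 19.2 and 17.2 CPM at E18.5, 17.6, 20.98 and 26.1 CPM in the P5 libraries and 15.7, 19.3 and 24.4 CPM at P8. All 9 later libraries lay below the E15.5 libraries, and the later time-points overlapped. *Clk4* fell by 0.59 on the log2 scale before birth (SE 0.167, edgeR FDR = 0.027), and between E18.5 and P5 the log2 fold change was 0.18 (SE 0.167, edgeR FDR = 0.35). Against E15.5 its log2 fold change was -0.41 at P5 (edgeR FDR = 0.041) and -0.55 at P8 (edgeR FDR = 0.0099). The fall to E18.5 lost its call without E15.5 replicate 1 (edgeR FDR = 0.058), E15.5 replicate 2 (0.081), E18.5 replicate 2 (0.087) or E18.5 replicate 3 (0.083). The lower level at P5 lost it without E15.5 replicate 1 (edgeR FDR = 0.073) or 2 (0.12), E18.5 replicate 2 (0.051), P5 replicate 1 (0.17) or 2 (0.11), or P8 replicate 2 (0.055), and its edgeR FDR was 0.054 with the replicate number as a block.

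Within a time-point, *Clk1* and *Clk4* moved together. The 3 libraries stood in the same order for both genes at each of the 4 time-points, with replicate 1 highest at E18.5 and replicate 3 highest at P5 and P8. The deviations of log2(CPM + 1) from the time-point means had r = 0.978 over the 12 libraries, against 0.718 for *Clk1* with *Clk2* and 0.47 for *Clk1* with *Clk3*. Other pairs of members were also high, with 0.877 for *Srpk1* with *Srpk2* and 0.738 for *Clk2* with *Clk4*. These points share their libraries and the r is a description. Within a time-point, inclusion of the *Clk1* exon did not have that order. E18.5 replicate 2 had the highest PSI of its time-point (55.8%) at a *Clk1* level of 38.9 CPM, and P8 replicate 3 had 45.6% at 61.9 CPM. Between time-points, the means of both went the same way. They were higher at E15.5 (63.9 CPM, 71.8%) and P5 (67.2 CPM, 69.7%) than at E18.5 (42.1 CPM, 44.2%) and P8 (49.4 CPM, 45.7%). The *Clk1* levels of P5 and P8 overlapped, and a relation between level and inclusion was not tested.

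**Figure D3:**
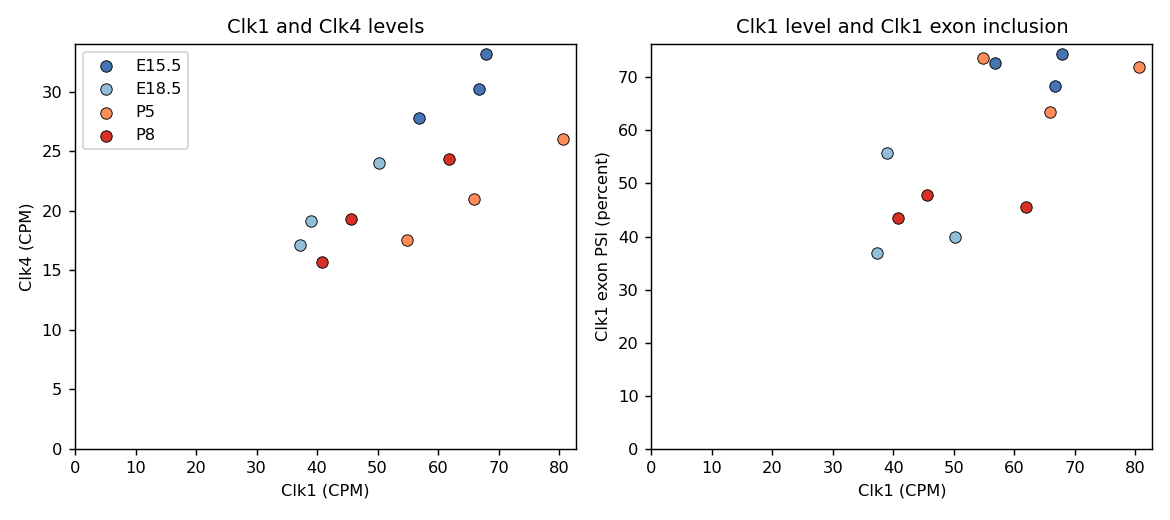
*Clk4* level (left, CPM) and *Clk1* exon inclusion (right, PSI in percent) against *Clk1* level (CPM) in each of the 12 libraries, coloured by time-point. Within each time-point *Clk4* rises with *Clk1*, whereas PSI at P8 stays between 43.5 and 47.8% over *Clk1* levels of 40.8 to 61.9 CPM. Between time-points, mean *Clk1* level and mean PSI are both higher at E15.5 and P5 than at E18.5 and P8.

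*Clk2*, a further member of the family, was higher at E15.5 than at any later time-point. It was at 40.2, 41.2 and 43.7 CPM in the E15.5 replicates and at 32.7, 29.0 and 30.9 CPM at E18.5. At P5 it was at 23.6, 31.3 and 29.8 CPM and at P8 at 25.6, 30.9 and 35.02 CPM. The 9 later libraries lay below the 3 E15.5 libraries and overlapped one another. It fell by 0.43 on the log2 scale before birth (SE 0.105, edgeR FDR = 0.014), and its log2 fold change against E15.5 was -0.47 at P5 (edgeR FDR = 0.0013) and -0.38 at P8 (edgeR FDR = 0.0055). Between E18.5, P8 and P5, in this order of the mean (30.8, 30.5 and 28.2 CPM), edgeR's FDR was 0.67 and 0.56. The fall to E18.5 had an edgeR FDR of 0.058 without E18.5 replicate 2.

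*Clk3* was lowest at E18.5. It was at 45.2, 46.3 and 47.5 CPM in the E15.5 replicates, at 43.8, 34.6 and 30.7 CPM at E18.5, at 40.8, 42.9 and 44.4 CPM in the P5 libraries and at 46.6, 49.9 and 46.2 CPM at P8. The E18.5 replicates were the most spread, and replicate 1 lay within the range of P5. *Clk3* fell by 0.34 on the log2 scale before birth (SE 0.107, edgeR FDR = 0.039), rose by 0.32 to P5 (SE 0.107, edgeR FDR = 0.018) and was 0.46 higher at P8 than at E18.5 (edgeR FDR = 0.002). In order of the mean, P8 (47.6 ± 2.03 CPM), E15.5 (46.3 ± 1.17) and P5 (42.7 ± 1.80) did not differ between neighbours past the threshold (edgeR FDR = 0.35 and 0.84), and E18.5 was at 36.3 ± 6.73 CPM. The fall to E18.5 was lost in 12 of the alternatives, more than any other call of a member, among them the removal of any E15.5 library (edgeR FDR = 0.067, 0.081 and 0.087 without replicates 1, 2 and 3), of E18.5 replicate 2 (0.12) or 3 (0.11), of any P5 library (0.064, 0.068 and 0.066), or of P8 replicate 1 (0.063) or 2 (0.06). The rise to P5 was lost without E18.5 replicate 2 (edgeR FDR = 0.065), E18.5 replicate 3 (0.077) or P5 replicate 3 (0.055), and its log2 fold change was 0.48 without E18.5 replicate 1 and 0.20 without E18.5 replicate 3. Exons of *Clk3* share 1284 bases with *Edc3* on the opposite strand, and the strand setting of the counting was not given in the sources used here, so reads of the pair may not be told apart there.

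**Figure D4:**
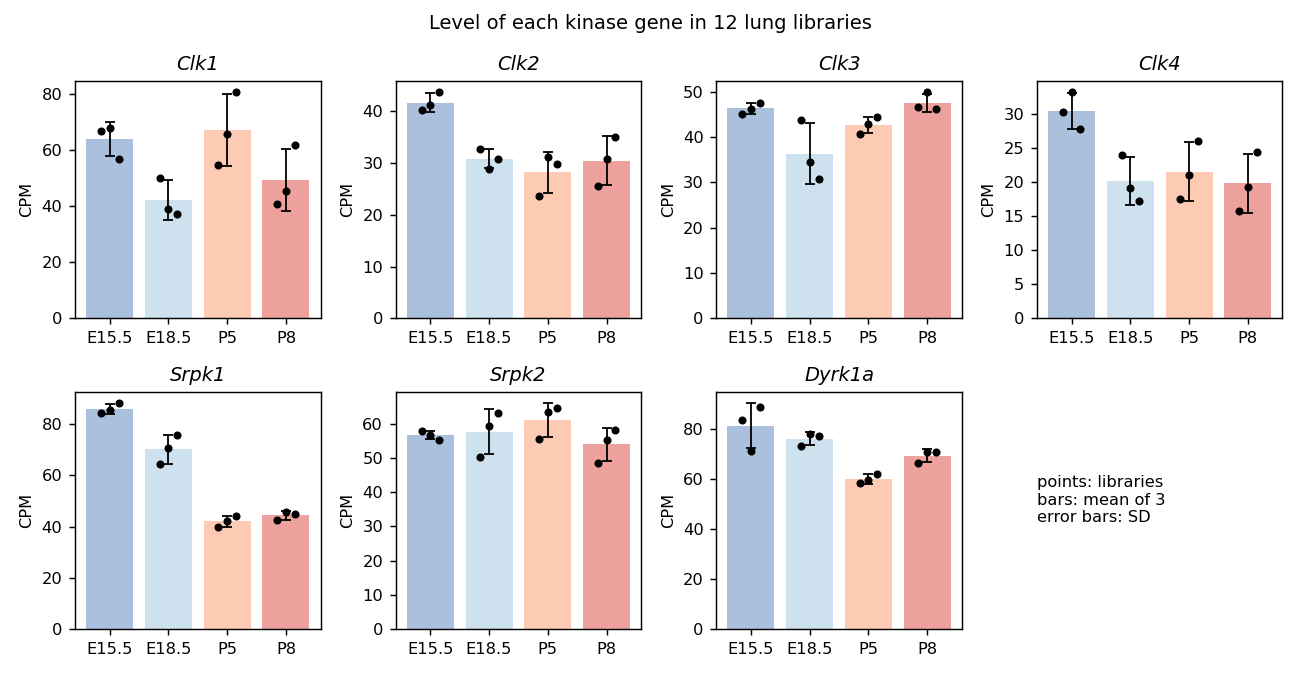
Level in CPM (y axis, from 0) of each member at the 4 time-points (x axis). Points are libraries, bars are means and error bars are SD (n = 3). *Srpk1* separates embryonic (64.4 CPM or more) from postnatal (45.8 CPM or less) libraries. *Dyrk1a* does so by a narrow margin (71.1 CPM or more against 70.8 CPM or less). For *Dyrk1a*, edgeR called no change from E15.5 or E18.5 to P8. *Srpk2* overlaps at all time-points.

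Of the cytoplasmic kinases, *Srpk1* fell both before and across birth. It was at 84.4, 85.5 and 88.3 CPM in the E15.5 replicates, 64.4, 70.8 and 75.7 CPM at E18.5, 39.9, 42.1 and 44.1 CPM in the P5 libraries and 42.5, 45.8 and 44.97 CPM at P8. The libraries of E15.5, E18.5 and the postnatal time-points did not overlap, whereas P5 and P8 did. *Srpk1* fell by 0.29 on the log2 scale before birth (SE 0.0594, edgeR FDR = 0.0068) and by 0.65 across birth (SE 0.0598, edgeR FDR = 8.7e-07), and its log2 fold change from P5 to P8 was 0.06 (SE 0.0598, edgeR FDR = 0.51). Over the whole course from E15.5 to P8 it fell by 0.88 (edgeR FDR = 4.4e-08). In order of the mean, it had 86.0 ± 1.98 CPM (E15.5), 70.3 ± 5.66 (E18.5), 44.4 ± 1.72 (P8) and 42.1 ± 2.11 (P5), and the last neighbours alone did not differ past the threshold. Every *Srpk1* call kept its direction and its side of the FDR threshold in every alternative fit. None met the added rule of an absolute log2 fold change above 1.

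*Srpk2* differed little. It was at 57.8, 56.7 and 55.4 CPM in the E15.5 replicates, 50.4, 59.5 and 63.1 CPM at E18.5, 55.6, 63.4 and 64.6 CPM in the P5 libraries and 48.7, 55.3 and 58.1 CPM at P8. All pairs of time-points overlapped, and no neighbours in the order of the means (P5 61.2, E18.5 57.7, E15.5 56.6 and P8 54.0 CPM) differed past the threshold. The log2 fold changes over the consecutive intervals, each with an SE of 0.0786, were 0.03 (edgeR FDR = 0.8), 0.17 (edgeR FDR = 0.068) and -0.20 (edgeR FDR = 0.1). From E15.5 to P5 it was 0.20 (edgeR FDR = 0.033). That call was lost with scaling by library size only (0.12, edgeR FDR = 0.22), and without E15.5 replicate 1 (edgeR FDR = 0.059), 2 (0.06) or 3 (0.076) or P5 replicate 2 (0.076) or 3 (0.083). It was also lost with limma on log2(CPM + 1) (0.107, limma FDR = 0.3) and on log2(CPM + 0.1) (0.108, limma FDR = 0.3). The change from E18.5 to P5 passed without E18.5 replicate 3 (edgeR FDR = 0.027), with upper-quartile scaling (edgeR FDR = 0.031), with DESeq2 (adjusted p = 0.034) and with the replicate number as a block (edgeR FDR = 0.037), and that from P5 to P8 passed without P8 replicate 3 (-0.26, edgeR FDR = 0.039). Exons of *Srpk2* share 972 bases with *Kmt2e* on the opposite strand, with the same limit as for *Clk3*.

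*Dyrk1a* was lower at P5 than before birth. It was at 83.6, 71.1 and 88.8 CPM in the E15.5 replicates, 73.2, 78.0 and 76.9 CPM at E18.5, 58.3, 59.6 and 62.0 CPM in the P5 libraries and 66.3, 70.8 and 70.5 CPM at P8. Every P5 library lay below every library of the other time-points, and E15.5 and E18.5 overlapped. In CPM the P8 libraries also lay below all embryonic libraries, by a narrow margin (70.8 against 71.1 CPM). With TMM scaling, edgeR called P8 different from neither E15.5 (-0.155, FDR = 0.064) nor E18.5 (-0.067, FDR = 0.41). *Dyrk1a* fell by 0.26 on the log2 scale across birth (SE 0.0713, edgeR FDR = 0.0063) and was lower at P5 than at E15.5 (-0.34, edgeR FDR = 7.6e-04). From P5 to P8 its log2 fold change was 0.19 (SE 0.0713, edgeR FDR = 0.085). The order of the means was E15.5 (81.2 CPM), E18.5 (76.1), P8 (69.2) and P5 (59.98), with no neighbours past the threshold (edgeR FDR = 0.4, 0.41 and 0.085). E15.5 replicate 2 was the lowest E15.5 library, and without it edgeR called *Dyrk1a* lower at E18.5 (-0.17 from E15.5, FDR = 0.049), higher at P8 than at P5 (0.19, FDR = 0.02) and lower at P8 than at E15.5 (-0.24, FDR = 0.0015).

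Over the longer intervals, from E15.5 to P5, 4 members were lower (*Clk2*, *Clk4*, *Srpk1* and *Dyrk1a*) and 1 higher (*Srpk2*), against 38% and 37.1% of all genes, and the count of 5 was 3 without E15.5 replicate 1, E15.5 replicate 2 or P5 replicate 2. From E18.5 to P8, 1 was lower (*Srpk1*) and 1 higher (*Clk3*), against 37.2% and 36.5%, and from E15.5 to P8, 3 were lower (*Clk2*, *Clk4* and *Srpk1*) and 0 higher, against 38.7% and 37.6%. These comparisons share libraries with those of consecutive time-points. None of the members passed in any comparison once an absolute log2 fold change above 1 was also asked for, a rule met by 3.04, 26.8 and 2.96% of genes over the consecutive intervals and by 31.8% (E15.5 to P5), 29% (E18.5 to P8) and 32.3% (E15.5 to P8) over the longer ones.

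Levels of different genes were set side by side only per kilobase of transcript. Per kilobase of the longest coding transcript, *Clk1* was the highest member at all 4 time-points, with means from 23.5 to 37.4 CPM per kilobase. Per kilobase of all exons of the gene joined, *Dyrk1a* was above *Clk1* at all time-points but P5. The values were 9.84 against 7.85 CPM per kilobase at E15.5, 9.22 against 5.18 at E18.5 and 8.39 against 6.08 at P8. By that length *Clk2* was also above *Clk1* at E15.5 (7.87) and E18.5 (5.82), and *Srpk1* was at E18.5 (5.68). The order between these genes thus depended on the length used. *Clk1* was above *Clk4* and *Clk3* at each time-point with either length, for example at P5 with 37.4 against 11.1 and 17.1 CPM per kilobase of the longest coding transcript.

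Genes whose level was most like that of a member were ranked by Pearson r of log2(CPM + 1) over the 12 libraries among 12153 genes with a mean of 5 CPM or more. For *Srpk1* these included *Pygo2* (r = 0.996) and *Cdk2* (r = 0.996), and for *Clk2* *Ccnl2* (0.973), *Taf1b* (0.963) and *Fam193b* (0.95). For *Dyrk1a* they included *Scaf4* (0.973) and *Gcn1l1* (0.967), for *Clk4* *Tbce* (0.94), *Ppp4r1l-ps* (0.87) and *2810001G20Rik* (0.864), and for *Srpk2* *Vps4a* (0.931), *Mob1a* (0.9) and *Lrif1* (0.897). The values were lower for *Clk1*, with *Agbl3* (0.885), *Ccdc9* (0.866) and *Brf1* (0.856), and for *Clk3*, with *Irs2* (0.816) and *Pim1* (0.806) among them. *Clk4* was at rank 28 for *Clk1* (r = 0.747) and *Clk1* was not close to *Srpk1* (r = -0.077). The points share their time-points, so these r describe the course and not a relation between genes.

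The substrates of the kinases and the factors that act with them were taken from lists of known genes. Of 18 SR and SR-like genes, all tested, 5 fell and 0 rose up to E18.5 (median log2 fold change -0.17), 15 fell and 0 rose across birth (median -0.69), and 0 fell and 2 rose after P5 (median 0.00). Of all genes tested, 9.87, 35.7 and 8.21% fell and 11.6, 35.4 and 9.75% rose over these intervals. The same shares stand beside the counts of the lists that follow. Across birth, *Srsf7*, an SR protein with a zinc knuckle, went from 298 ± 39.7 to 105 ± 9.68 CPM (log2 fold change -1.43, edgeR FDR = 3.3e-08). *Tra2b*, a splicing activator with an RS domain on either side of its RNA recognition motif, fell by 0.79 on the log2 scale (edgeR FDR = 1.8e-06). The genes with no called change over that interval were *Srsf5* (0.12, edgeR FDR = 0.49), *Son* (-0.15, edgeR FDR = 0.25) and *Pnisr* (0.19, edgeR FDR = 0.27). Over the interval before birth the largest called change on this list was that of *Pnisr*, from 74.7 ± 4.68 to 45.5 ± 3.21 CPM (-0.71, edgeR FDR = 0.0067), followed by *Tra2a* (-0.47, edgeR FDR = 0.0038).

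Of 8 genes of SR protein import and dephosphorylation, 0 rose and 1 fell up to E18.5, 1 rose and 7 fell across birth, and 0 rose and 2 fell after P5, with medians of -0.09, -0.32 and -0.13. *Tnpo3*, which encodes the importin of phosphorylated SR proteins, went from 99.2 ± 6.23 to 55.8 ± 3.70 CPM across birth (-0.75, edgeR FDR = 2.3e-07), and the gene higher at P5 was *Ppp2cb*, a catalytic subunit of protein phosphatase 2A (0.31, edgeR FDR = 1.1e-04). Of 13 related kinases, 12 were tested, since *Dyrk4* was under the minimum level. Of these, 2 rose and 2 fell up to E18.5, 4 rose and 3 fell across birth, and 1 rose and 0 fell after P5, with medians of -0.09, -0.07 and 0.01. *Srpk3*, the muscle member of the SRPK family, was low throughout, at 2.18, 2.01 and 0.492 CPM in the E15.5 replicates and 0.431, 0.134 and 0.256 CPM at E18.5 (log2 fold change -2.50, edgeR FDR = 0.0093), and at 1.18 ± 0.401 CPM at P5 (2.19 against E18.5, edgeR FDR = 0.0035). *Prpf4b*, a kinase of the spliceosome, fell by 0.58 on the log2 scale from E18.5 to P5 (edgeR FDR = 1.4e-05), while *Hipk3*, of the homeodomain-interacting kinases, rose by 0.55 (edgeR FDR = 9.3e-06).

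**Figure D5:**
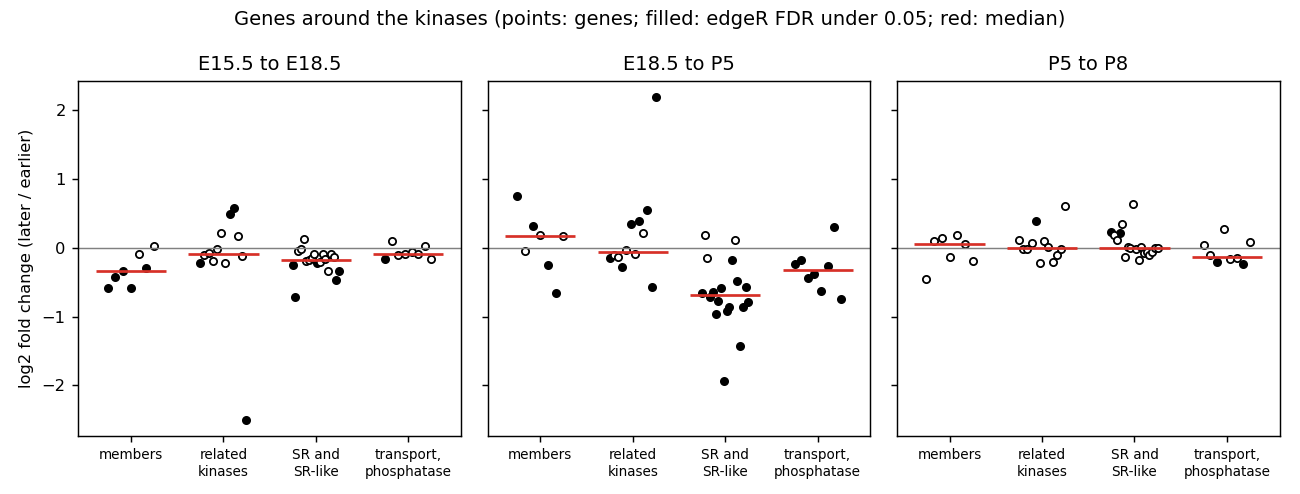
Log2 fold change (y axis) of each tested gene of 4 lists (x axis) between consecutive time-points, from edgeR, with filled points for an FDR under 0.05 and a red line at the median. From E18.5 to P5, 15 of 18 SR and SR-like genes were lower (median -0.69), while the members moved both ways.

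Other signals moved with these results. The summed level of 4 genes of dividing cells (*Mki67*, *Top2a*, *Cdk1* and *Ccnb1*) went from a range of 1208 to 1289 CPM at E18.5 to one of 445 to 468 CPM at P5, all 4 lower by edgeR, beside the fall of *Srpk1* and of the SR genes, and its part in them was not tested. Across birth the 12 lung genes went from a summed 3608 to 4591 CPM to 15730 to 17500 CPM, mostly by *Sftpc* (mean of 1417, then 12280 CPM). Of these lung genes 7 rose and 2 fell (*Nkx2-1*, -0.54, and *Epcam*, -1.62). Over the same interval 3 of 3 erythroid genes rose (39.2 to 45.2 CPM, then 441 CPM in P5 replicate 1 and 200 to 213 CPM in the other P5 libraries). Of the immediate-early genes, 5 of 7 rose and 1 fell (193 to 197 CPM, then 215 to 233 CPM). The part of these 3 lists in the changes of the members across birth was not tested. Splicing of *Clk1* is known to respond to temperature, and whether that holds for the exon of this event cannot be told here, so 7 cold- and heat-responsive genes were read beside it. The cold-inducible *Cirbp* had successive means of 44.3 ± 6.67, 34.1 ± 3.04, 83.96 ± 10.4 and 64.4 ± 6.82 CPM. Over the consecutive intervals its changes of -0.37 (edgeR FDR = 0.046), 1.39 (edgeR FDR = 6.4e-07) and -0.40 (edgeR FDR = 0.04) had the signs of the PSI differences of the *Clk1* exon. From E15.5 to P8 the signs were opposite, with 0.62 for *Cirbp* (edgeR FDR = 4.7e-04) and -26.2 points for the PSI. From E18.5 to P8 *Cirbp* changed by 0.99 (edgeR FDR = 1.1e-05) and the PSI by 1.41 points. The cold-inducible *Rbm3* changed by -0.38 (edgeR FDR = 0.014), 0.15 (edgeR FDR = 0.18) and -0.46 (edgeR FDR = 0.0076) over the consecutive intervals. From E15.5 to P8 it changed by -0.70 (edgeR FDR = 2e-05). The heat-responsive *Hspa8*, with successive means of 319, 200.5, 136 and 185 CPM, did not alternate in that way. Nor did *Hsph1*, which changed by -0.605 (edgeR FDR = 0.001), -1.23 (edgeR FDR = 6.1e-08) and 0.487 (edgeR FDR = 0.0038). *Dnajb1*, with successive means of 70.6, 65.2, 48.4 and 49.4 CPM, did not either. The heat-inducible *Hspa1b* had successive means of 4.50, 7.30, 3.22 and 7.84 CPM and *Hspa1a* of 1.99, 3.62, 2.15 and 4.67 CPM, higher at E18.5 and P8, although E18.5 replicate 1 alone was high there (14.4 CPM against 3.06 and 4.45 for *Hspa1b*) and edgeR called no change of either over the consecutive intervals. Over the whole list, 0 genes rose and 4 fell up to E18.5, 1 rose and 3 fell across birth, and 2 rose and 2 fell after P5, with summed levels of 944 to 1037, 680 to 741, 607 to 678 and 594 to 615 CPM. Their part in the *Clk1* values was not tested.

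Library totals on the counted genes ranged from 41337443 to 53901957 reads. The lung label was met by its epithelial markers, since *Nkx2-1* was at 135.8 CPM or more and *Sftpc* at 504.6 CPM or more in every library. The 12 lung genes listed summed to 2642 CPM or more. This list also holds endothelial, mesenchymal and immune genes, so the sum alone does not mark lung. A set of 3 libraries stood apart: the summed level of 8 thymocyte genes was 33.4 CPM in E15.5 replicate 2 and 178 and 344 CPM in P8 replicates 1 and 2, against 4.09 to 17.4 CPM in the other 9. Without these 3 libraries, 3 members in place of 5 were called from E15.5 to E18.5, namely *Clk1* (-0.54, edgeR FDR = 0.039), *Clk2* (-0.43, edgeR FDR = 0.019) and *Srpk1* (-0.29, edgeR FDR = 0.019), while *Clk4* (-0.52, edgeR FDR = 0.052) and *Clk3* (-0.34, edgeR FDR = 0.097) had changes near those with all libraries (-0.59 and -0.34) in a fit of fewer libraries. From E15.5 to P8, *Clk2* (-0.18, edgeR FDR = 0.27) and *Clk4* (-0.17, edgeR FDR = 0.5) were then no longer called and *Dyrk1a* was (-0.21, edgeR FDR = 0.03). From E18.5 to P8 *Clk1* was higher by 0.62 (edgeR FDR = 0.015), and from E15.5 to P5 *Clk4* lost its call (edgeR FDR = 0.086). P8 is then 1 library, assumed to vary like the other time-points. The 4 calls from E18.5 to P5 kept their side of the threshold without these libraries.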

How the data were processed

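RNA of 12 whole mouse lungs was sequenced by the authors as paired-end reads from TruSeq libraries, and no strand setting was given in the sources used here. Per the labels, reads were aligned to mm10 with TopHat2 2.1.1 and Bowtie2 2.3.4 and counted per Gencode gene with HTSeq 0.10.0. The authors deposited raw counts of 16152 genes, CPM of a larger set (counts scaled to mapped reads) and, per splicing event, the percent spliced in (PSI) from VAST-TOOLS with the junction reads behind it. Library totals of 41337443 to 53901957 counted reads set the precision.

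Counts were tested with edgeR 4.0.16 (R 4.3.3), TMM scaling, 1 quasi-likelihood fit of 12 libraries over 15994 genes (those reaching 1 CPM in 3 or more libraries), and Benjamini-Hochberg adjustment over all of them. The procedure was tested on simulated data. Alternatives were DESeq2 1.42.0, limma 3.58.1 on log2(CPM + 1) and log2(CPM + 0.1), other scalings, no filter, the replicate block, single libraries left out, and the 3 libraries with thymus genes left out. PSI was summarised as mean ± SD without a test. Events compared needed a PSI and a coverage score above the minimum in every library and 10 reads or more in all but at most 2. Wilson intervals (95%) used the mean of both inclusion junctions plus the skipping junction as their number of reads.

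Named were all members, every event that the tables of the study pair with a member, genes of the fixed lists, and the 3 genes most like each member and 3 events most like and most unlike the *Clk1* exon by Pearson r. Some genes that this rule names are not reported here. The members and lists were chosen with earlier results of these data known. Same-numbered replicates did not deviate together (r from -0.343 to 0.301, median 0.0065, in 18 pairs, against -0.312 to 0.267 in 36 pairs of unlike number), so the numbers were not taken to pair the samples. Gene lengths, exons and sequences came from GENCODE vM21 on the same build.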

Additional observations from a re-analysis of the deposited data

How the results depend on the processing

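The number of members called by edgeR (5, 4 and 0 over the consecutive intervals, then 5 for E15.5 to P5, 2 for E18.5 to P8 and 3 for E15.5 to P8) was 0 in every comparison when a log2 fold change above 1 was also required. With single libraries left out it ranged from 1 to 5, 3 to 4, 0 to 2, 3 to 5, 2 to 3 and 3 to 4, in this order. From P5 to P8, 1 member was called with DESeq2 (*Clk1*) and 1 with only the 6 libraries compared (*Dyrk1a*). From E15.5 to P8, 5 were called with limma at either pseudocount, *Clk1* and *Dyrk1a* being added. Without the 3 libraries with thymus genes, 3 were called from E15.5 to E18.5.

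With the replicate block, the counts were 5, 5, 0, 4, 2 and 3. *Srpk2* was added from E18.5 to P5 (0.17, FDR = 0.037) and *Clk4* was lost from E15.5 to P5 (-0.42, FDR = 0.054), and no other call changed.

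In 26 cases the sign of a single gene's change turned, and in each the change was past the threshold neither with all libraries nor under the alternative (smallest FDR 0.12 and 0.43). These were *Clk1* E15.5 to P8 (0.082) and *Clk4* P5 to P8 (0.157) without the thymus libraries, *Clk3* E15.5 to P5 with DESeq2 (0.004), *Clk4* E18.5 to P8 by library size (-0.007) and limma (-0.029 and -0.03), and *Clk2* E18.5 to P8 by limma (-0.024 and -0.025). For *Srpk2*, E18.5 to P8 was 0.005 with DESeq2, 0.011 with upper-quartile scaling and 0.081 without the thymus libraries, and E15.5 to P8 was -0.063 by library size and -0.07 and -0.072 by limma. With 1 library left out, *Clk2* ranged from -0.121 to 0.036 (E18.5 to P5), -0.022 to 0.181 (P5 to P8) and -0.075 to 0.128 (E18.5 to P8), *Clk4* from -0.149 to 0.2 (E18.5 to P8), and *Srpk2* from -0.031 to 0.112 (E15.5 to E18.5), -0.106 to 0.037 (E18.5 to P8) and -0.051 to 0.054 (E15.5 to P8). Scaling by library size moved the median of all genes to -0.10 from E15.5 to P5. The cause of these shifts was not tested.

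The PSI differences of the *Clk1* exon ranged from -33.4 to -23.9, 21.8 to 31.3, -27.1 to -22.1, -4.09 to 0.98, -2.26 to 7.20 and -27.9 to -24.9 points with 1 library left out, in the order of comparisons above. With reads pooled over the replicates (71.3, 44.7, 70.1 and 46.1% in order of time) they moved by less than the spread between replicates. The uncorrected PSI of this exon equalled the deposited PSI in every library, so that setting could not move them. Precision of a PSI is limited by 92.0 to 243 effective reads per library.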
